A study of Mus musculus with 22 samples.

Results

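The 35 genes described here build, load or feed the DNA replication machinery of S phase, or time its start. They were chosen by name, and each was represented by a probe set that lists 1 gene symbol, the one of highest mean where a gene had several. Of the 35 genes, 32 were measured in this way, among 14860 genes with such a probe set on the array. Pcna, Lig1 and Rrm2 had none and are not analysed here. Every measured gene of the group had 1 such probe set, so no choice between probe sets was needed. Genes above 4.55 (log2), which is the median of all deposited values, on 3 or more arrays entered the tests, and 31 of the 32 did so. Fen1, the nuclease that trims Okazaki fragments, reached 4.14 at most and is given by its levels alone. The tested genes closest to that limit, Gins1 and Tk1, exceeded it on 14 of 22 arrays, more than any 1 group holds.

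Gamma-delta thymocytes of 8-week-old female C57BL/6 mice were sorted by gamma-chain segment (Vgamma1.1+ or Vgamma2+ in the labels, here Vg1.1+ and Vg2+) and by surface CD24 and CD73. The Vg1.1+ cells gave 4 arrays at CD24+CD73-, 3 at CD24+CD73+ and 4 at CD24-CD73+, and the Vg2+ cells gave 3, 4 and 4 arrays at the same stages. No treatment, transgene or deletion is named for any group. Immature thymocytes carry CD24, and CD73 appears as cells commit to the gamma-delta lineage, so the stages are given in the order above. The labels call the replicates biological and do not say whether each is a different animal, so the p-values reflect only how these samples vary, which may be technical in part.

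Before S phase, the origin recognition complex, Cdc6 and Cdt1 load the MCM2-7 ring onto DNA as an inactive helicase. Cyclin E kinase and other factors then bring in Mcm10, Cdc45 and the GINS complex, which turn the ring into the moving helicase, and primase and the polymerases copy the strands behind it. Transcription of most of these genes is driven by E2F factors as cells leave G1. In the thymus, immature T-lineage cells pass through bursts of division, and mature cells divide less.

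The array was an exon array, and every value below is a log2 value per gene as deposited. All differences are differences of log2 values with the standard error of the fit. The SD of the log2 values of an array ran from 1.61 to 2.09. The narrowest arrays were Vg1.1+ CD24-CD73+ replicate 1 (1.61) and Vg2+ CD24+CD73+ replicate 3 (1.71), with the next at 1.81, and the main counts of called genes are also given without that pair. Of 6 marker genes of the sort, 4 were measured. The gene of CD73, Nt5e, averaged 7.22 to 8.33 in the CD73+ groups, against 3.42 and 3.75 in the CD24+CD73- groups. Cd3e and Cd3g, which alpha-beta T cells share, averaged 9.49 to 10.75 and 10.87 to 11.08 over the groups, and Sox13, a factor of the gamma-delta lineage, 5.18 to 7.22. Trdc and Cd24a were not measured here, so the receptor and CD24 were not checked. Markers of alpha-beta lineage thymocytes (6 of 7 measured, without Rag1) summed to 271-586 in Vg1.1+ CD24+CD73- cells and 230-306 in Vg2+ CD24+CD73- cells, and to 119-173 in the other 4 groups. Markers of B cells (3 of 4 measured), myeloid and dendritic cells (6 of 8), thymic epithelium (4 of 5) and erythroid cells (1 of 4) summed to 94.8-446, 85.2-165, 62.8-110 and 18.0-31.7.

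As a group, the replication genes were highest in Vg1.1+ CD24+CD73- cells and lowest in Vg2+ CD24-CD73+ cells. With each gene centred on its mean over the 22 arrays, the 32 genes averaged 0.71 ± 0.07 (SD, n = 4), 0.33 ± 0.01 (n = 3) and -0.27 ± 0.14 (n = 4) at the successive stages of Vg1.1+ cells. In Vg2+ cells the same mean was 0.07 ± 0.05 (n = 3), 0.06 ± 0.13 (n = 4) and -0.81 ± 0.12 (n = 4). Vg1.1+ cells had a lower mean at each stage than at the one before, whereas the first stages of Vg2+ cells overlapped and the last lay below both. The lowest arrays of Vg1.1+ CD24-CD73+ (-0.47) and of Vg2+ CD24+CD73+ (-0.10) were the pair of narrow spread. In sorted bulk samples, fewer cells in S phase and less RNA per cell cannot be told apart.

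**Figure D1:**
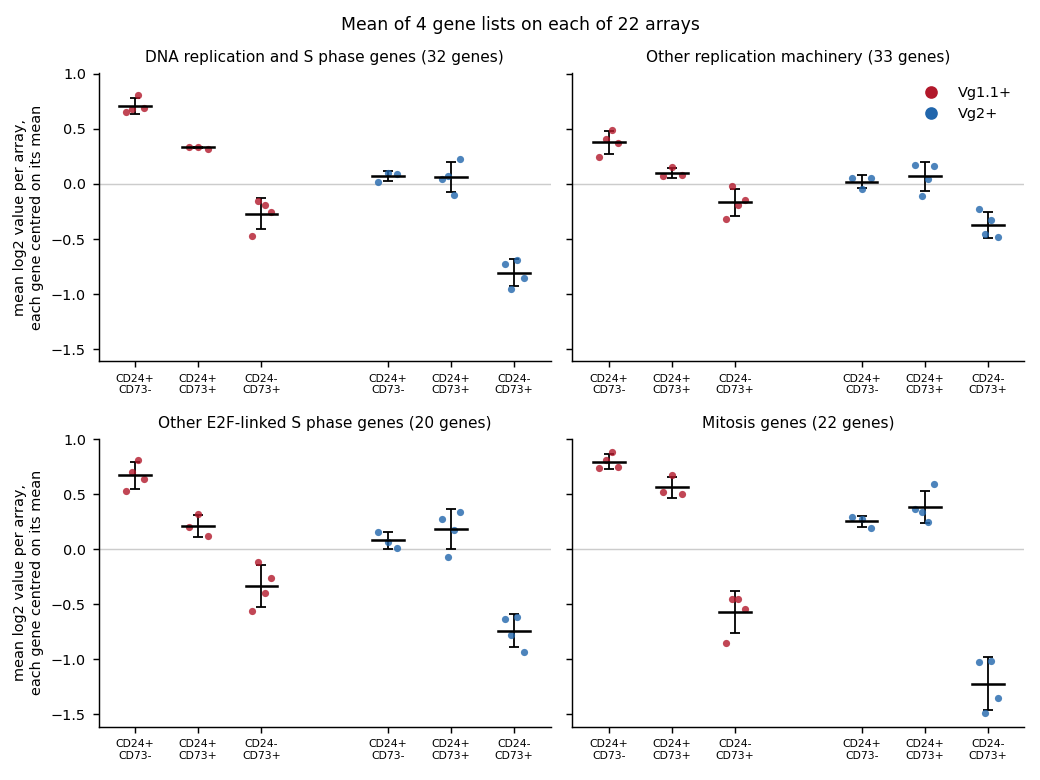
Mean centred log2 value (vertical axis) of 4 gene lists on each of 22 arrays (points), by stage and with Vg1.1+ left of Vg2+; bars are the group mean and SD. The replication genes average 0.71 in Vg1.1+ CD24+CD73- cells and -0.81 in Vg2+ CD24-CD73+ cells, and the mitosis genes 0.80 and -1.22 in those groups.

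**Figure D2:**
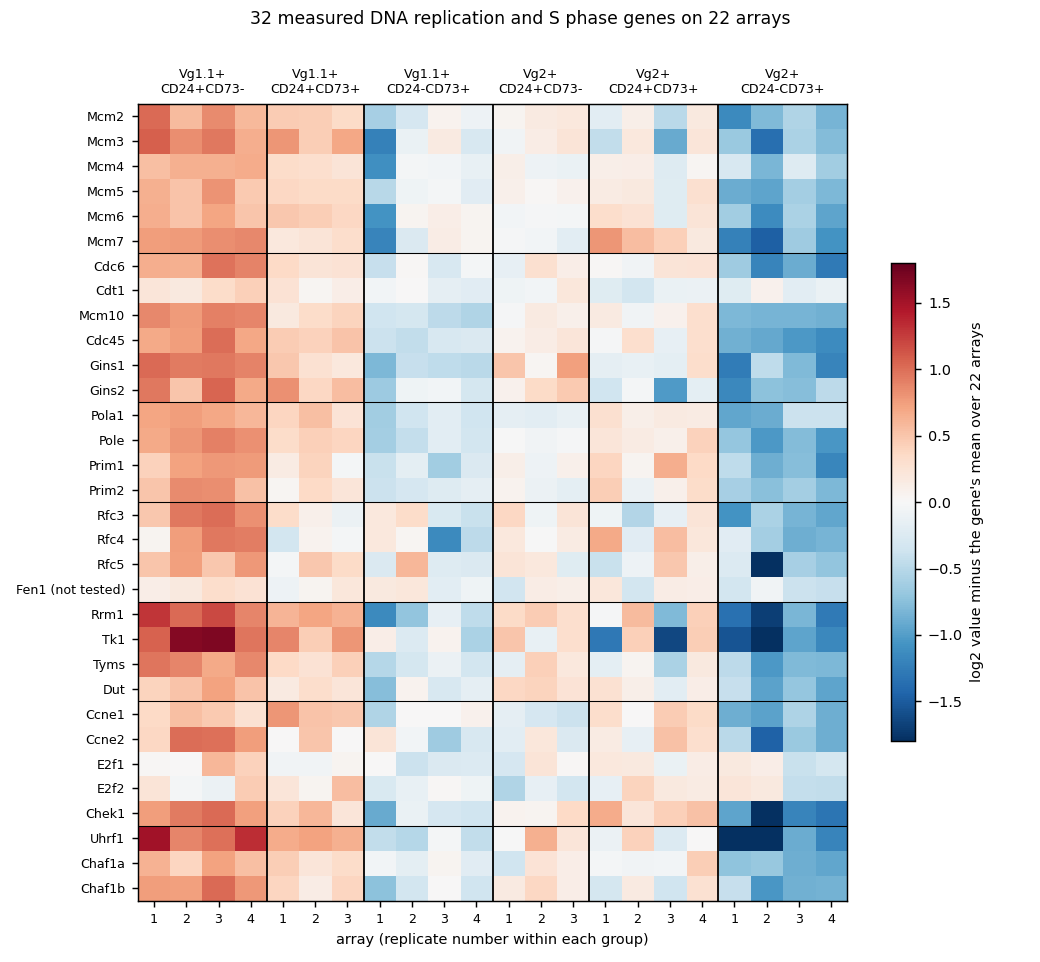
Log2 value minus the gene's mean (colour) for the 32 measured genes (rows, grouped by role) on 22 arrays (columns, numbered by replicate). Most rows are red in Vg1.1+ CD24+CD73- and blue in Vg2+ CD24-CD73+, whereas Cdt1, E2f1, E2f2 and Fen1 stay pale.

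Because the genes moved together, the promoters of the group were read from RefSeq (GRCm38.p6), as windows of 300 bases running from 250 before a listed start to 50 after it. The table held 30 promoters of 26 of the 32 measured genes, with 2 windows each for Mcm7, E2f2, Uhrf1 and Fen1. In 17 of the 30 that start was also the start of the gene in RefSeq's gene table. Positions below are counted from the start of the window shown, which for Mcm7 is the upstream one. They were searched on both strands for TTTCCCGC, TTTGGCGC, TTTCGCGC and TTTGCCGC (E2F factors), CCAAT (the factor NF-Y) and TTTGAA (the CHR element of genes that peak at mitosis). An E2F word was found in 10 of 30 promoters (33.3%), against 744 of 32851 promoters in the whole table (2.26%). CCAAT was found in 17 (56.7%), against 37.4% of all promoters, and TTTGAA in 4 (13.3%), against 17.9%. The 6 promoters below show the range: 4 MCM subunits with 2 or 3 E2F words each, Cdt1 with 1, and Chek1 with none of the searched words. They are not typical of the group, since most of the 30 held no E2F word. Among MCM windows not shown, that of Mcm2 and the downstream one of Mcm7 held none. Capitals mark the matches, which overlap in Mcm5, Mcm6 and Mcm7, and each sequence is written 5′ to 3′ in the direction of the gene.
Mcm3 (chr1:20820263-20820562, minus strand): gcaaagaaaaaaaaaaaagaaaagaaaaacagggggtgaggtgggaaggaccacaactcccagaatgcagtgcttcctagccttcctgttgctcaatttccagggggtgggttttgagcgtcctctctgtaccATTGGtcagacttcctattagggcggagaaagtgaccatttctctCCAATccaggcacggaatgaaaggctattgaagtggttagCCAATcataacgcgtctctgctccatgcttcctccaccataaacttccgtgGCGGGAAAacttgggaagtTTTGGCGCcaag
Mcm5 (chr8:75109259-75109558, plus strand): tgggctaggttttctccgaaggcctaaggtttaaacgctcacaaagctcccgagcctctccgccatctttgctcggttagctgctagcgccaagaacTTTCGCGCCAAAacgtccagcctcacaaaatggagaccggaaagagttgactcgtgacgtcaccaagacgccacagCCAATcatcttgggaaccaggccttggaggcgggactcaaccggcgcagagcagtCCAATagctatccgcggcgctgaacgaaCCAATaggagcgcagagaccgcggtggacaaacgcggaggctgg
Mcm6 (chr1:128359656-128359955, minus strand): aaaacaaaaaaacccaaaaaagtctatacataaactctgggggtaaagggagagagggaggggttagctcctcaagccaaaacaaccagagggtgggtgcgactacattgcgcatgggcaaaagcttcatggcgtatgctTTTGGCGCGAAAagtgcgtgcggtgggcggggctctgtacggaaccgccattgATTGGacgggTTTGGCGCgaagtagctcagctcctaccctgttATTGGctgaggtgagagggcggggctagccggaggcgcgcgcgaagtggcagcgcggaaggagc
Mcm7 (chr5:138171834-138172133, minus strand): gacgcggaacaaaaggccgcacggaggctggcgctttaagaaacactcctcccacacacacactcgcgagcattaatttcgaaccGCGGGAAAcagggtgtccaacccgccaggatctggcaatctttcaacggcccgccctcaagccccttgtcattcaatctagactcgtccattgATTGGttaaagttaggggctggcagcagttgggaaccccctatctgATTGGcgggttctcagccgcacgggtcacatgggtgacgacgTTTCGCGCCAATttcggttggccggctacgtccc
Cdt1 (chr8:122567765-122568064, plus strand): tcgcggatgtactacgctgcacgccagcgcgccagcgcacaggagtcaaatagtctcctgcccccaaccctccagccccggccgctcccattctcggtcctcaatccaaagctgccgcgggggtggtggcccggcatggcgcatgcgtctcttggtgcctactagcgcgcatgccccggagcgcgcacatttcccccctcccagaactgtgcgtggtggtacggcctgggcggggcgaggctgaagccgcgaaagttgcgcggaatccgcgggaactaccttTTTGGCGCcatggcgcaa
Chek1 (chr9:36726609-36726908, minus strand): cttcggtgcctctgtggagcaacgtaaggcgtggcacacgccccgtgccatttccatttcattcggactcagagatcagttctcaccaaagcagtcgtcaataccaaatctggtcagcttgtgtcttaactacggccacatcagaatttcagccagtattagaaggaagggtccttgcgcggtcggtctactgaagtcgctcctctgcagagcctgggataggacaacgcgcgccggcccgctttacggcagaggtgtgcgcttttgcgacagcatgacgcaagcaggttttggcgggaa

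The positions differed between these genes. In Mcm3 the E2F words began at positions 20 and 39 after the start and in Cdt1 at position 33. In Mcm6 they began at positions -110, -106 and -47, and in Mcm5 at -153 and -149, counted from the start. Both kinds of layout were held by Mcm7, with 1 word at position -165 and 1 at position 17. These matches describe letters and not occupancy. The Chek1 window ends in letters that begin an E2F word (gcgggaa), so a match across its edge could not be read.

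The first comparison, CD24+CD73+ minus CD24+CD73-, asks what changed as CD73 was gained. In Vg1.1+ cells 6 of the 31 tested genes fell and none rose, where 3.45% of all 8545 tested genes fell (limma, Benjamini-Hochberg adjusted p under 0.05, the limit for every gene said here to rise, fall or be called). These were the clamp loader subunit Rfc3 (-0.71 ± 0.20, log2 difference ± SE, n = 3 against 4 arrays), the GINS subunit Gins1 (-0.63 ± 0.18), Mcm10 (-0.55 ± 0.10), Cdc6 (-0.51 ± 0.15), the primase subunit Prim2 (-0.47 ± 0.13) and the polymerase Pole (-0.42 ± 0.12). Their adjusted p ran from 0.000769 for Mcm10 to 0.0471 for Cdc6. The median difference of the 31 genes was -0.42, against 0.0014 over all tested genes. For 22 of the 31, every CD24+CD73+ array lay below every CD24+CD73- array, as for 12.4% of tested genes.

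The count at this step was sensitive to single arrays. It was 1 or 2 without any 1 of Vg1.1+ CD24+CD73- replicates 2 (1), 3 (1) and 4 (2) and Vg1.1+ CD24+CD73+ replicates 1 (2), 2 (2) and 3 (1), and 7 without CD24+CD73- replicate 1. Without the pair of narrow arrays it was 10, where 437 of 8545 tested genes fell. Mcm10 was called under every alternative run. The summed alpha-beta lineage markers were also lower here (119-140 in CD24+CD73+ against 271-586 in CD24+CD73- cells), with 3 of 4 tested markers fallen, among them Cd8b1 (-2.29 ± 0.30). Replicate 1 of CD24+CD73- had the highest of those sums and the lowest mean of the replication genes in its group (0.65). The markers of early T precursors summed to 251-293 against 532-750, and they did not move one way: Dntt fell by 3.76 ± 0.45 and Il2ra by 1.55 ± 0.19, and Kit rose by 2.04 ± 0.18. The part of these markers in the result was not tested.

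In Vg2+ cells the gain of CD73 left most of these genes without a call. Cyclin E1 (Ccne1) rose by 0.57 ± 0.15 (adjusted p = 0.0132, limma, n = 4 against 3 arrays) and Gins2 fell by 0.70 ± 0.21 (adjusted p = 0.0349). That is 1 of 31 in each direction, where 5.82% of tested genes rose and 6.41% fell. The median difference was 0.04, against -0.05 over all tested genes, and the single differences ran from -0.73 (Tk1) to 0.57 (Mcm7), neither of which was called. The count was 1 without replicate 2 of CD24+CD73- or replicate 1 or 3 of CD24+CD73+, 0 without CD24+CD73- replicate 3, and 3 without CD24+CD73+ replicate 4. Without the pair of narrow arrays it was 2, both risen, where 596 of 8545 tested genes rose. Myeloid and dendritic markers summed to 126-165 in CD24+CD73+ against 86.7-94.3 in CD24+CD73- cells, with 3 of 3 tested markers risen, and 2 of 4 tested alpha-beta lineage markers fell. Early T precursor markers summed to 238-341 against 589-857, where Dntt fell by 3.04 ± 0.45, Kit rose by 1.55 ± 0.18 and Il2ra was not called (-0.55 ± 0.19). The part of these markers in the result was not tested.

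Whether the subsets differed in this step was tested by the difference of the steps, Vg1.1+ minus Vg2+. By limma none of the 31 genes passed, and 8 of 8545 genes did (0.0936%). An unadjusted p under 0.05 was found for 10 of the 31 and for 810 of the 8545. The median difference of steps was -0.34, against 0.06 over all tested genes. The polymerases and primases lay together, with Prim1 at -0.82 ± 0.23, Prim2 at -0.73 ± 0.19, Pole at -0.67 ± 0.16 and Pola1 at -0.64 ± 0.19. All 4 had an unadjusted p under 0.05, with adjusted p of 0.145 to 0.260 (limma). The lowest single differences of steps lay in other roles: Mcm7 at -1.13, Rfc4 at -0.96 and Ccne2 at -0.90. Under other settings more genes passed: 1 without the pair of narrow arrays or with only the groups compared, 3 with the spread as a covariate, 4 with cyclic loess and 9 with array weights. Without that pair the 1 gene was an MCM subunit and not a polymerase or primase, and it was lower, as were 11 of 8545 tested genes.

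**Figure D3:**
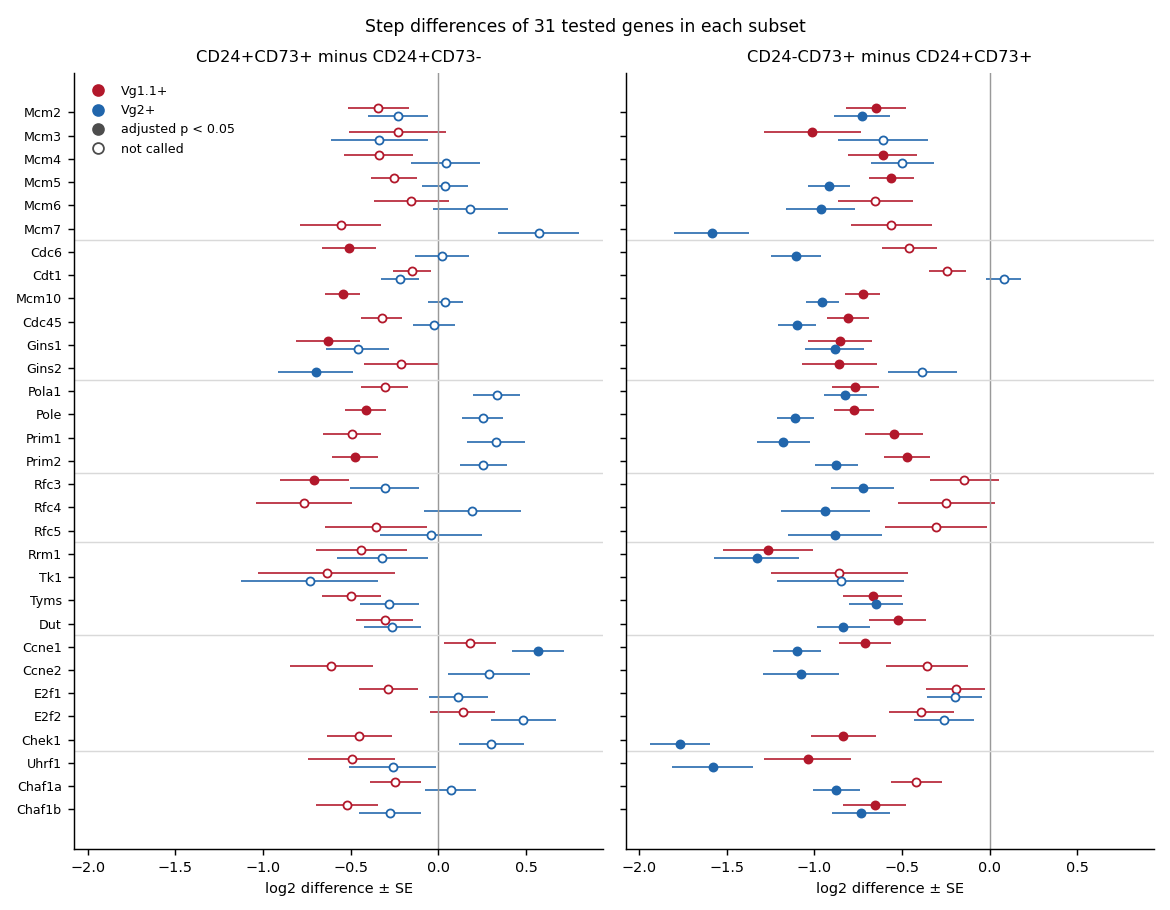
Log2 difference with its SE (horizontal axis) of the 31 tested genes (rows) for the gain of CD73 (left) and the loss of CD24 (right); red is Vg1.1+, blue is Vg2+, and filled points passed an adjusted p of 0.05. On the left 6 red points are filled and lie below 0 with 1 filled blue point on each side of 0, and on the right 19 red and 24 blue points are filled, all below 0.

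The second comparison, CD24-CD73+ minus CD24+CD73+, asks what changed as CD24 was lost, and here most of the replication genes fell in both subsets. In Vg1.1+ cells 19 of 31 fell and none rose, where 6.92% of tested genes fell, and the median difference was -0.65 against -0.04 over all tested genes. In Vg2+ cells 24 of 31 fell and none rose, where 9.91% of tested genes fell, and the median was -0.88 against 0.02. The groups did not overlap for 26 genes in Vg1.1+ cells (14.3% of tested genes were lower in this sense) and for 21 in Vg2+ cells (9.14%). The genes that fell in both subsets numbered 16, which were 16 of the 19 and 16 of the 24. Mcm3, Mcm4 and Gins2 passed in Vg1.1+ cells and not in Vg2+ cells, with -0.61 ± 0.26, -0.50 ± 0.18 and -0.39 ± 0.20 in Vg2+ cells. The difference of the steps passed for none of these genes. Without the pair of narrow arrays Mcm3 and Mcm4 also fell in Vg2+ cells. Cdt1, Tk1, E2f1 and E2f2 passed in neither.

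Without the pair of narrow arrays the counts were 17 and 27, where 539 and 1025 of 8545 tested genes fell. The Vg1.1+ count was 12 without replicate 1 of CD24+CD73+ or replicate 1 of CD24-CD73+, the array of narrow spread, and 13 or more without any other array. The Vg2+ count stayed between 23 and 27 without any 1 array. Of 4 tested alpha-beta lineage markers, 1 rose and 1 fell in each subset at this step. Their sums were at 142-152 in Vg1.1+ CD24-CD73+ against 119-140 in Vg1.1+ CD24+CD73+ cells, and at 137-173 in Vg2+ CD24-CD73+ against 123-170 in Vg2+ CD24+CD73+ cells. Markers of thymic epithelium summed to 62.8-76.2 against 88.3-105 in Vg1.1+ and to 63.0-92.2 against 102-110 in Vg2+ cells, and those of early T precursors to 93.8-132 against 251-293 and to 196-351 against 238-341. Among these last Kit fell by 1.96 ± 0.18 and 2.02 ± 0.17 in Vg1.1+ and Vg2+ cells, Il2ra rose by 0.61 ± 0.19 and 2.53 ± 0.18, and Dntt was not called. Summed B cell markers were lower in Vg1.1+ cells (94.8-175 against 226-319) and higher in Vg2+ cells (289-446 against 134-284). Of each of these lists only 1 gene was tested: Cd79b for B cells (-1.03 and 0.99) and Epcam for epithelium (-1.08 and -0.95). As centred log2 means the whole lists moved less in Vg1.1+ cells, from 0.09 to -0.07 for B cells and from 0.02 to -0.11 for epithelium. In Vg2+ cells these means went from -0.08 to 0.38 and from 0.23 to -0.09. Among 3 tested myeloid markers 1 fell in Vg2+ cells. The part of these markers in the result was not tested.

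The difference of these steps, Vg1.1+ minus Vg2+, passed for 1 of 31 genes, Chek1, where 1.83% of tested genes passed in that direction. It was 0.93 ± 0.25 (adjusted p = 0.0359, limma): Chek1, the kinase of the replication checkpoint, was lower by 0.83 ± 0.19 in Vg1.1+ cells and by 1.77 ± 0.17 in Vg2+ cells. Mcm7 came next, at 1.03 ± 0.31 (adjusted p = 0.0641, limma). Of the 31 genes 10 had an unadjusted p under 0.05, as had 1647 of all 8545 tested genes. The median difference of steps was 0.31, against -0.06 over all tested genes. Chek1 was not called without 10 of the 15 arrays of these groups, taken 1 at a time. The count was 0 without replicate 1 or 3 of Vg1.1+ CD24+CD73+, 2, 3 or 4 of Vg1.1+ CD24-CD73+, 1, 3 or 4 of Vg2+ CD24+CD73+, and 2 or 4 of Vg2+ CD24-CD73+. It was 3 without replicate 1 of CD24-CD73+ in either subset and 2 without Vg2+ CD24-CD73+ replicate 3. Without the pair of narrow arrays it was 4, all higher, as were 181 of 8545 tested genes.

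From the first stage to the last, 29 of 31 genes fell in Vg1.1+ cells, where 13.6% of tested genes did, and 26 of 31 fell in Vg2+ cells, where 12.9% did. None rose in either subset. The median differences were -1.01 and -0.93, against -0.04 and -0.03 over all tested genes. The groups did not overlap for 27 and 28 of the 31 genes (14.5% and 18.5% of tested genes were lower in this sense). E2f2 and the clamp loader subunit Rfc5 did not pass in Vg1.1+ cells (-0.25 ± 0.17 and -0.66 ± 0.27). Rfc4, Mcm4, Cdt1, E2f1 and E2f2 did not pass in Vg2+ cells, with differences between -0.75 and 0.22. This comparison shares its arrays with the steps above, which share their CD24+CD73+ arrays with each other, and the comparisons of the subsets reuse the same arrays. Without the pair of narrow arrays the counts were 29 and 28, where 1089 and 1500 of 8545 tested genes fell.

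Cell type markers also moved from the first stage to the last. Early T precursor markers summed to 93.8-132 in CD24-CD73+ against 532-750 in CD24+CD73- cells of Vg1.1+, and to 196-351 against 589-857 in Vg2+ cells. Dntt fell in both subsets (-4.93 ± 0.42 and -4.14 ± 0.45), whereas Il2ra fell in Vg1.1+ cells (-0.94 ± 0.18) and rose in Vg2+ cells (1.98 ± 0.19). Alpha-beta lineage markers summed to 142-152 against 271-586 in Vg1.1+ cells, where 2 of 4 tested fell, and to 137-173 against 230-306 in Vg2+ cells, where 1 of 4 fell. The epithelial marker Epcam fell in both subsets (-0.98 ± 0.17 and -0.67 ± 0.18), and in Vg2+ cells Cd79b (0.97 ± 0.29) and C1qb (0.82 ± 0.21), markers of B and myeloid cells, rose. The part of these markers in the result was not tested.

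Replication genes were called higher in Vg1.1+ than in Vg2+ cells at the first and the last stage. At CD24+CD73- 12 of 31 genes were higher in Vg1.1+ cells and none lower, where 1.56% of tested genes were higher, and the median difference was 0.65 against 0.02 over all tested genes. For 28 of the 31 every Vg1.1+ array lay above every Vg2+ array, as for 11.2% of tested genes. The called genes were Mcm5, Mcm7, Cdc6, Mcm10, Cdc45, Pola1, Pole, Prim1, Prim2, Tyms, Ccne1 and Chaf1a, with differences between 0.55 and 0.89. Mcm10 (0.77 ± 0.10, adjusted p = 0.000254) and Pole (0.83 ± 0.12, adjusted p = 0.000339) had the lowest adjusted p (limma, n = 4 against 3 arrays). At CD24-CD73+ 15 of 31 were higher in Vg1.1+ cells and none lower, where 5.79% of tested genes were higher, with a median of 0.51 against 0.0077. The groups did not overlap for 12 of 31 there, against 5.72% of tested genes. The 15 genes higher at CD24-CD73+ were Mcm2, Mcm5, Mcm7, Cdc6, Mcm10, Cdc45, Pole, Prim2, Rfc3, Tk1, Ccne1, Ccne2, Chek1, Uhrf1 and Chaf1a. The largest differences were those of thymidine kinase Tk1 (1.21 ± 0.36, adjusted p = 0.0328) and Uhrf1 (1.20 ± 0.23, adjusted p = 0.000919).

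Between the subsets at CD24+CD73+ no gene of the group passed. An unadjusted p under 0.05 (limma) was found for 10 of 31, and for 1579 of all 8545 tested genes. Of all 8545 tested genes 1 passed (0.0117%) by limma. The median difference was 0.25, against 0.07 over all tested genes, and for 12 of 31 the Vg1.1+ arrays lay above all Vg2+ arrays, as for 13.6% of tested genes. The centred mean of the 32 measured genes ran from 0.32 to 0.34 on the Vg1.1+ arrays and from -0.10 to 0.23 on the Vg2+ arrays. Differences were above 0 for 25 of 31 genes, and for 5148 of 8545 tested genes. Gins2 had the lowest adjusted p of the group (0.98 ± 0.21, adjusted p = 0.103). The interval of the difference was narrow for Prim2 (95% interval -0.26 to 0.29) and wide for Tk1 (0.40 to 2.03).

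The counts between the subsets moved with single arrays at the first stage. At CD24+CD73- the count was 6, 5 and 7 without Vg1.1+ replicate 2, 3 or 4, and 6 and 5 without Vg2+ replicate 1 or 3. Without Vg1.1+ replicate 1, the array of highest alpha-beta lineage markers, it was 9. At CD24+CD73+ it was 1 without Vg2+ replicate 2, and at CD24-CD73+ it lay between 11 and 22 without any 1 array. Without the pair of narrow arrays the counts at the successive stages were 21, 0 and 23, where 271, 4 and 839 of 8545 tested genes were higher. At CD24+CD73- the alpha-beta lineage markers summed to 271-586 in Vg1.1+ against 230-306 in Vg2+ cells, with none of 4 tested markers called. B cell markers at CD24-CD73+ summed to 94.8-175 in Vg1.1+ against 289-446 in Vg2+ cells, and the 1 tested, Cd79b, was lower in Vg1.1+ cells (-1.64). Early T precursor markers at CD24-CD73+ summed to 93.8-132 in Vg1.1+ against 196-351 in Vg2+ cells, with Il2ra lower in Vg1.1+ cells (-2.30 ± 0.18) and Kit and Dntt not called. Of 3 tested myeloid markers 1, C1qb, was lower there (-0.64 ± 0.20). The part of these markers in the results was not tested.

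**Figure D4:**
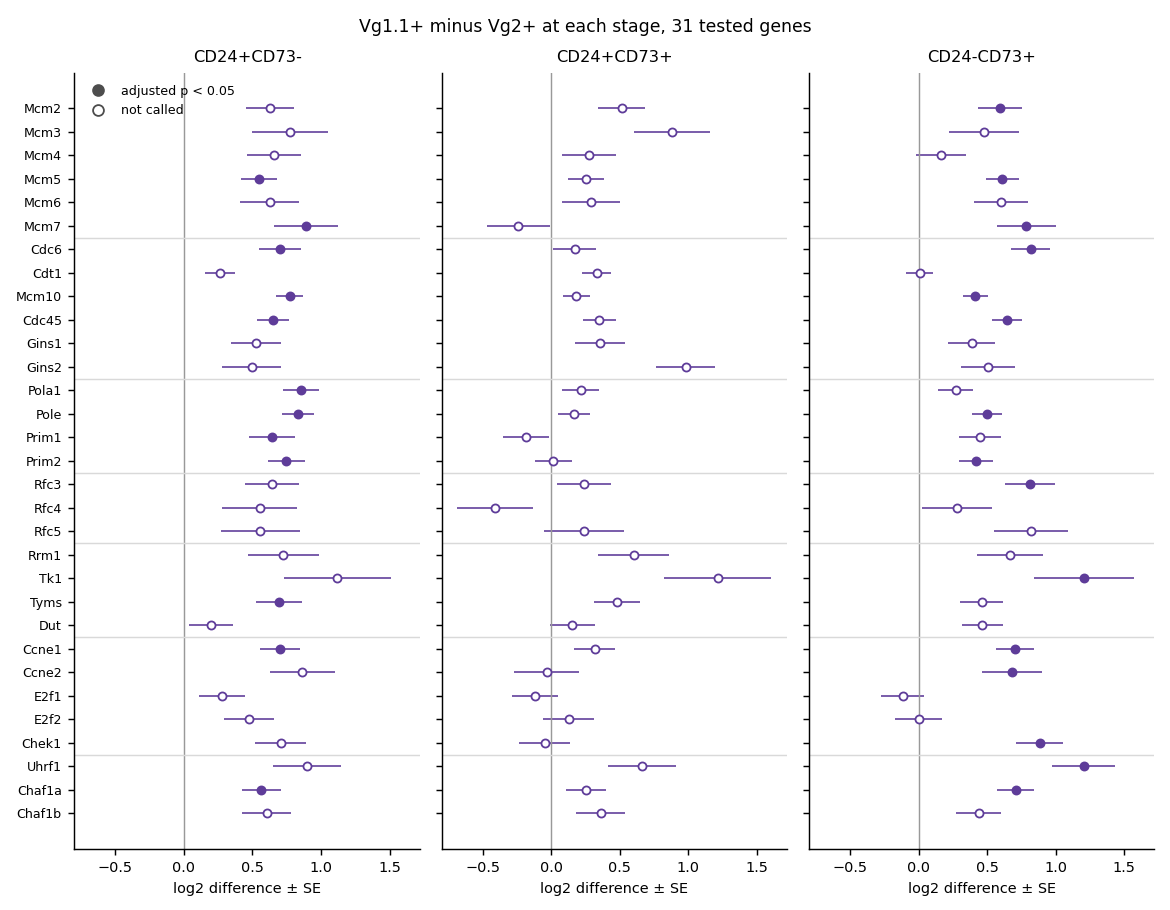
Log2 difference Vg1.1+ minus Vg2+ with its SE (horizontal axis) for the 31 tested genes (rows) at each stage; filled points passed an adjusted p of 0.05. At CD24+CD73- 12 points and at CD24-CD73+ 15 points are filled, all above 0, and none is filled at CD24+CD73+.

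The 6 subunits of the MCM ring unwind the parental strands. At the loss of CD24 4 of 6 fell in each subset, and from the first to the last stage 6 of 6 fell in Vg1.1+ cells and 5 of 6 in Vg2+ cells. Of all tested genes 6.92% and 9.91% fell at the loss of CD24, and 13.6% and 12.9% from the first to the last stage. Without the pair of narrow arrays 3 and 6 fell at the loss of CD24 and 6 and 6 from the first to the last stage. Of all 8545 tested genes, 539 and 1025 then fell at the loss of CD24, and 1089 and 1500 from the first to the last stage. Mcm5, whose promoter carries 2 overlapping E2F words, had 6.97, 6.85, 7.13 and 6.80 in Vg1.1+ CD24+CD73- cells, 6.71, 6.67 and 6.68 in Vg1.1+ CD24+CD73+ cells and 5.83, 6.25, 6.30 and 6.13 in Vg1.1+ CD24-CD73+ cells. Its Vg2+ arrays read 6.42, 6.35 and 6.41, then 6.47, 6.51, 6.12 and 6.63, and last 5.44, 5.38, 5.72 and 5.52. All 4 arrays of the last Vg2+ stage lay below every other array. It was lower by 0.56 ± 0.13 (adjusted p = 0.00614) and 0.92 ± 0.12 (adjusted p = 7.02e-06) as CD24 was lost in Vg1.1+ and Vg2+ cells (limma). Mcm6 had the highest probe-set values of the 6, between 7.46 and 9.30, which says nothing of its amount relative to the other subunits.

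Mcm7 was highest at the middle stage in Vg2+ cells. There it read 5.75, 5.72 and 5.58 at CD24+CD73-, 6.56, 6.32, 6.19 and 5.94 at CD24+CD73+ and 4.54, 4.30, 5.12 and 4.70 at CD24-CD73+. Its Vg1.1+ arrays read 6.52, 6.53, 6.60 and 6.63, then 5.96, 6.00 and 6.08, and last 4.58, 5.51, 5.90 and 5.82. The middle stage was therefore above the first on every Vg2+ array and below it on every Vg1.1+ array, though neither difference was called (0.57 ± 0.23 with adjusted p = 0.120 in Vg2+, -0.56 ± 0.23 with adjusted p = 0.181 in Vg1.1+, limma). The fall as CD24 was lost was 1.59 ± 0.21 in Vg2+ cells (adjusted p = 9.37e-06). In Vg1.1+ cells the same step gave -0.56 ± 0.23 and was not called (adjusted p = 0.130). The lowest Vg1.1+ array, 4.58, was the one of narrow spread. Without the pair of narrow arrays 1 of the 6 MCM subunits fell at the gain of CD73 in Vg1.1+ cells and 1 rose in Vg2+ cells. Of all 8545 tested genes 437 then fell in Vg1.1+ cells and 596 rose in Vg2+ cells.

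The licensing and helicase-activating factors numbered 6, of which 4 fell at the loss of CD24 in each subset. Of all tested genes 6.92% in Vg1.1+ and 9.91% in Vg2+ cells fell at that step. Without the narrow pair 4 of the 6 fell in Vg1.1+ and 5 in Vg2+ cells, where 539 and 1025 of 8545 tested genes fell. Mcm10, which helps to switch the loaded helicase on, read 6.30, 6.20, 6.34 and 6.31, then 5.61, 5.77 and 5.84, and last 5.08, 5.12, 4.97 and 4.89 at the 3 stages of Vg1.1+ cells. In Vg2+ cells it read 5.42, 5.59 and 5.53, then 5.60, 5.37, 5.51 and 5.74, and last 4.63, 4.60, 4.60 and 4.58. The 3 Vg1.1+ groups did not overlap, whereas the first Vg2+ stages did. Mcm10 had the lowest adjusted p of the group at the first stage between the subsets and fell by 1.27 ± 0.09 from the first to the last stage of Vg1.1+ cells (adjusted p = 1.44e-09, limma). Cdc45, which completes the active helicase, fell as CD24 was lost, by 0.81 ± 0.12 in Vg1.1+ and by 1.101 ± 0.11 in Vg2+ cells.

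Cdc6 and Cdt1 load the MCM ring together. Cdc6 fell by 1.105 ± 0.14 at the loss of CD24 in Vg2+ cells (adjusted p = 5.54e-06, limma), to 4.22, 3.67, 3.97 and 3.59 in CD24-CD73+ cells, against 4.88, 4.80, 5.09 and 5.11 in CD24+CD73+ cells. Cdt1 at the same step differed by 0.08 ± 0.10 (95% interval -0.13 to 0.29), with 5.12, 5.42, 5.15 and 5.23 in CD24-CD73+ against 5.12, 5.02, 5.22 and 5.23 in CD24+CD73+ cells. In Vg1.1+ cells Cdt1 differed by -0.24 ± 0.11 at that step without a call, and fell by 0.39 ± 0.10 from the first to the last stage (adjusted p = 0.00571). All its 22 values lay between 5.02 and 5.77.

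The GINS subunits, which link Cdc45 to the ring, fell as CD24 was lost in Vg1.1+ cells by 0.86 each (SE 0.18 for Gins1 and 0.21 for Gins2). Gins1 also fell in Vg2+ cells, by 0.88 ± 0.17, to 3.66, 4.46, 4.13 and 3.74 at CD24-CD73+, against 4.76, 4.79, 4.74 and 5.24 at CD24+CD73+. Gins2 had its Vg2+ fall earlier, as CD73 was gained, with 5.77, 6.09, 5.12 and 5.95 at CD24+CD73+ against 6.21, 6.48 and 6.60 at CD24+CD73-. Its lowest value, 5.12, was on the array of narrow spread, and without that array Gins2 was not called at that step (adjusted p = 0.125, limma).

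The 4 polymerase and primase genes moved together. All 4 fell at the loss of CD24 in both subsets, and all 4 were higher in Vg1.1+ than in Vg2+ cells at CD24+CD73-, with the same counts without the narrow pair. In the main fit 6.92% and 9.91% of tested genes fell at that loss in Vg1.1+ and Vg2+ cells, and 1.56% were higher at CD24+CD73-. Without the pair 539, 1025 and 271 of 8545 tested genes did so. Pole, the catalytic subunit of the leading-strand polymerase, read 6.05, 6.17, 6.28 and 6.20, then 5.71, 5.81 and 5.76, and last 4.76, 4.94, 5.18 and 5.05 in Vg1.1+ cells. In Vg2+ cells it read 5.36, 5.31 and 5.36, then 5.59, 5.52, 5.47 and 5.79, and last 4.68, 4.34, 4.59 and 4.32. The middle stage lay below the first on every Vg1.1+ array and above it on every Vg2+ array. Pole fell by 0.78 ± 0.12 in Vg1.1+ and by 1.11 ± 0.11 in Vg2+ cells as CD24 was lost (adjusted p = 7.33e-05 and 8.3e-08, limma). Pola1, the catalytic subunit of the polymerase that starts each fragment, had the largest subset difference of the 4 at CD24+CD73-, 0.85 ± 0.13, with 6.94, 6.99, 6.93 and 6.83 in Vg1.1+ against 6.07, 6.05 and 6.09 in Vg2+ cells. Prim1 and Prim2, the primase subunits, fell by 1.18 ± 0.15 and 0.88 ± 0.12 at the loss of CD24 in Vg2+ cells.

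The clamp loader, which opens the sliding clamp and sets it on DNA, was represented by Rfc3, Rfc4 and Rfc5. None of them was called at the loss of CD24 in Vg1.1+ cells, with differences of -0.15 ± 0.20, -0.25 ± 0.28 and -0.30 ± 0.29, and all 3 fell there in Vg2+ cells, by 0.73 ± 0.18, 0.94 ± 0.26 and 0.88 ± 0.27 (2 of the 3 without the narrow pair). In Vg2+ cells 9.91% of tested genes fell at that loss, and 1025 of 8545 without the narrow pair. The difference of the CD24 loss steps did not pass for Rfc3, Rfc4 or Rfc5 (adjusted p = 0.242 to 0.430, limma). Rfc3 was the only one of the 3 called as CD73 was gained in Vg1.1+ cells, with 6.92, 6.68 and 6.48 at CD24+CD73+ against 7.07, 7.53, 7.59 and 7.42 at CD24+CD73-. Spread within groups was wide for Rfc4 and Rfc5, with SDs of up to 0.60 and 0.70. Fen1 averaged 4.04 ± 0.09, 3.88 ± 0.15 and 3.85 ± 0.19 in the Vg1.1+ stages and 3.79 ± 0.26, 3.86 ± 0.24 and 3.53 ± 0.16 in the Vg2+ stages (SD).

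Genes of nucleotide supply included the largest fall of the group as CD24 was lost in Vg1.1+ cells. Rrm1, the large subunit of ribonucleotide reductase, read 8.69, 8.41, 8.58 and 8.27, then 8.01, 8.10 and 8.02, and last 6.25, 6.68, 7.25 and 6.94 in Vg1.1+ cells. In Vg2+ cells it read 7.74, 7.85 and 7.69, then 7.37, 7.96, 6.60 and 7.83, and last 6.05, 5.70, 6.57 and 6.12. It fell by 1.27 ± 0.26 and 1.33 ± 0.24 as CD24 was lost in Vg1.1+ and Vg2+ cells (adjusted p = 0.00206 and 0.000292, limma). The last stage lay below the middle one in each subset, with the single low array of Vg2+ CD24+CD73+, 6.60, being that of narrow spread. Tk1, which salvages thymidine, was scattered, from 3.07 to 5.15 within Vg2+ CD24+CD73+ cells, and its differences of -0.86 ± 0.39 in Vg1.1+ and -0.85 ± 0.36 in Vg2+ cells at the loss of CD24 were not called. Tyms and Dut, which make and protect the thymidylate pool, fell at that step by 0.67 ± 0.17 and 0.53 ± 0.16 in Vg1.1+ cells and by 0.65 ± 0.16 and 0.84 ± 0.15 in Vg2+ cells.

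Among the genes of G1/S control, the cyclins E did not follow 1 course. Ccne1 rose in Vg2+ cells as CD73 was gained, to 6.52, 6.20, 6.66 and 6.55 at CD24+CD73+, against 6.03, 5.89 and 5.81 at CD24+CD73-, and in Vg1.1+ cells it differed by 0.18 ± 0.15 without a call. As CD24 was lost it fell in both subsets, by 0.71 ± 0.15 in Vg1.1+ cells and by 1.102 ± 0.14 in Vg2+ cells (adjusted p = 0.00239 and 3.23e-06, limma). Ccne2 was called at that step in Vg2+ cells (-1.08 ± 0.22) and not in Vg1.1+ cells (-0.36 ± 0.23). The transcription factors E2f1 and E2f2 lay near the filter limit, between 4.29 and 5.28 and between 4.14 and 5.25, and E2f1 was called once, at -0.48 ± 0.16 from the first to the last stage of Vg1.1+ cells (adjusted p = 0.0296). E2f2 was called in no comparison.

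Chek1 read 6.58, 6.77, 6.86 and 6.57, then 6.25, 6.43 and 6.05, and last 4.92, 5.71, 5.53 and 5.47 in Vg1.1+ cells. Its Vg2+ values were 5.90, 5.89 and 6.19, then 6.50, 6.06, 6.26 and 6.36, and last 4.89, 4.04, 4.65 and 4.53. At the middle stage the subsets overlapped, and at the last stage every Vg2+ array lay below every Vg1.1+ array, the nearest being 4.92 in Vg1.1+ and 4.89 in Vg2+ cells. The difference at the last stage was 0.88 ± 0.17 (adjusted p = 0.00108, limma).

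**Figure D5:**
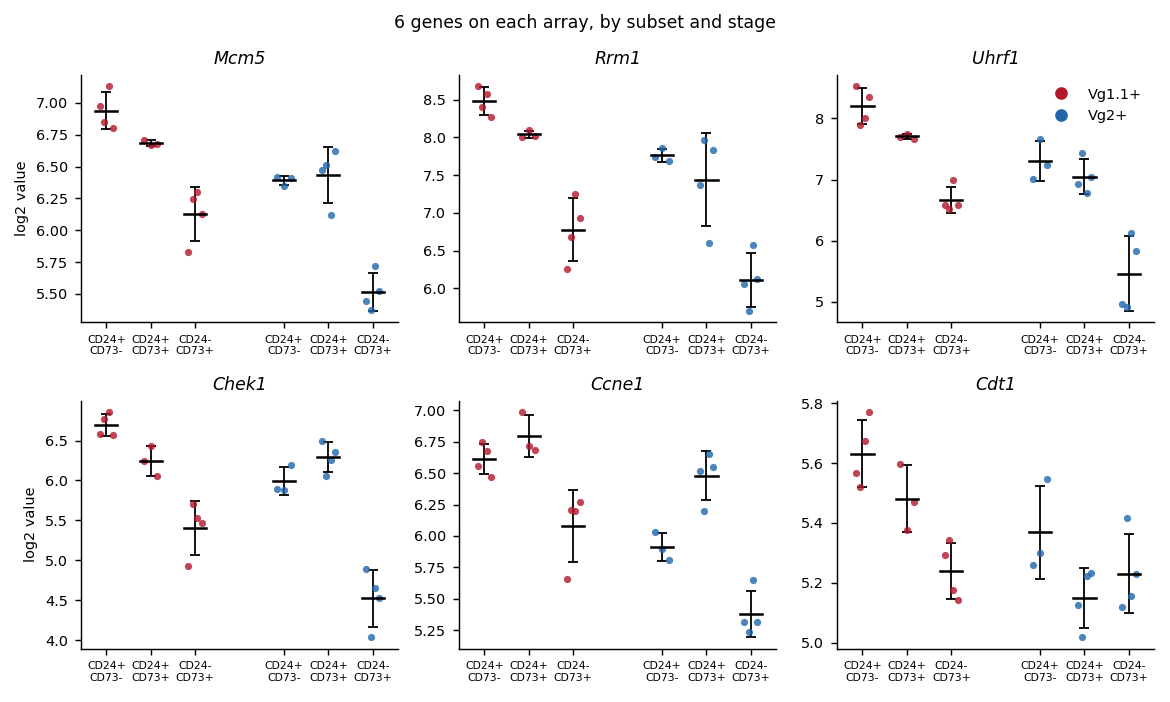
Log2 values (vertical axis, scaled per panel) of 6 genes on each array (points) by stage, with Vg1.1+ left of Vg2+; bars are the mean and SD. Mcm5, Rrm1, Uhrf1, Chek1 and Ccne1 are lowest in Vg2+ CD24-CD73+ cells, and Cdt1 stays between 5.02 and 5.77.

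The last 3 genes couple replication to chromatin: Uhrf1, which brings the maintenance DNA methyltransferase to new DNA, and Chaf1a and Chaf1b, subunits of the assembly factor that places histones behind the fork. Uhrf1 read 8.53, 7.90, 8.01 and 8.36, then 7.69, 7.75 and 7.67, and last 6.58, 6.51, 6.99 and 6.58 in Vg1.1+ cells. In Vg2+ cells it read 7.01, 7.66 and 7.24, then 6.92, 7.44, 6.78 and 7.04, and last 4.97, 4.92, 6.13 and 5.83. Its last stage lay below the others in both subsets, and lower in Vg2+ cells. Uhrf1 fell by 1.04 ± 0.25 and 1.58 ± 0.23 as CD24 was lost in Vg1.1+ and Vg2+ cells (adjusted p = 0.00756 and 2.44e-05, limma), and by 1.84 ± 0.25 from the first to the last stage of Vg2+ cells, the largest fall of the group there. Chaf1a fell at the loss of CD24 in Vg2+ cells (-0.88 ± 0.13) and was not called in Vg1.1+ cells (-0.42 ± 0.15), and Chaf1b fell in both (-0.73 ± 0.16 in Vg2+, -0.66 ± 0.18 in Vg1.1+).

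The genes did not track each other equally. The correlation of a gene with the mean of the other 31 over the 22 arrays, which share 6 groups and so are not independent, was 0.98 for Mcm5, Pole and Cdc45, 0.97 for Mcm10 and 0.96 for Cdc6. It was lowest for E2f2 (0.34), E2f1 (0.47), Fen1 (0.62), Cdt1 (0.62) and Rfc4 (0.67). Outside the group, the genes most like its mean were the condensin subunit Ncapg2 (0.98), the atypical E2F factor E2f8 (0.98) and Ect2 (0.97). They were followed by Tpx2, Zwilch, Dlgap5, Ncaph, Stil, Selenoh and Clspn, at 0.96 to 0.97. The proliferation marker Mki67 stood at 0.96, Top2a at 0.95 and Ccna2 at 0.94.

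Other parts of the replication machinery were counted as a list. Of 33 tested genes, none rose and 9 fell as CD24 was lost in Vg1.1+ cells and 17 in Vg2+ cells, with medians of -0.30 and -0.32. Over all tested genes 6.92% and 9.91% fell. The checkpoint mediator Clspn had the largest falls, -1.06 ± 0.15 in Vg1.1+ and -1.69 ± 0.14 in Vg2+ cells. The subunits of the origin recognition complex are named here after their values were seen: Orc1, Orc2 and Orc6 fell from the first to the last stage in both subsets, and Orc3, Orc4 and Orc5 were called in no comparison. At the gain of CD73 in Vg1.1+ cells 5 of the 33 fell, against 3.45% of all tested genes. They were led by the nuclease Dna2 (-0.84 ± 0.16) and the polymerase subunit Pole3 (-0.74 ± 0.12). In Vg2+ cells none was called, and 2 had an unadjusted p under 0.05 (limma), as had 2105 of all 8545 tested genes. Gmnn, the inhibitor that binds Cdt1, fell by 1.26 ± 0.17 as CD24 was lost in Vg2+ cells, and its difference of steps was called (0.95 ± 0.25, adjusted p = 0.0332, limma). In Vg1.1+ over Vg2+ cells, 4 of 33 were higher at CD24+CD73- and 6 at CD24-CD73+, against 1.56% and 5.79% of all tested genes. None was called at CD24+CD73+, where 6 had an unadjusted p under 0.05 (limma), as had 1579 of all 8545 tested genes. Without the narrow pair 8 fell in Vg1.1+ and 16 in Vg2+ cells at the loss of CD24, where 1 also rose in Vg2+ cells, 8 and 1 fell at the gain of CD73, and 8, 0 and 8 were higher in Vg1.1+ cells at the successive stages. Of all 8545 tested genes, 539 and 1025 then fell at the loss of CD24, and 948 rose there in Vg2+ cells. At the gain of CD73 437 and 606 fell. Those higher in Vg1.1+ cells numbered 271, 4 and 839. An E2F word was found in 32.4% of the promoters of this list.

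The next list held other S phase genes linked to E2F. Of 19 tested, 3 fell as CD73 was gained in Vg1.1+ cells, among them Dtl (-0.55 ± 0.12) and Atad2 (-0.50 ± 0.14), and 1, Brca1, rose in Vg2+ cells (0.37 ± 0.11). Over all tested genes 3.45% fell in Vg1.1+ and 5.82% rose in Vg2+ cells at this step. At the loss of CD24 10 fell in Vg1.1+ and 16 in Vg2+ cells and none rose, where 6.92% and 9.91% of all tested genes fell. In Vg2+ cells E2f8 stood at -1.44 ± 0.12 and the clamp loader partner Dscc1 at -1.48 ± 0.25. Between the subsets 6 were higher in Vg1.1+ cells at CD24+CD73- and 8 at CD24-CD73+, against 1.56% and 5.79% of all tested genes. At CD24+CD73+ none was called, and 3 had an unadjusted p under 0.05 (limma), as had 1579 of all 8545 tested genes. Without the narrow pair 10 fell at the gain of CD73 in Vg1.1+ cells and 1 rose and 1 fell in Vg2+ cells, 11 and 17 fell at the loss of CD24, and 12, 0 and 12 were higher in Vg1.1+ cells at the successive stages. Of all 8545 tested genes, 437 then fell at the gain of CD73 in Vg1.1+ cells, and 596 rose and 606 fell in Vg2+ cells. At the loss of CD24 539 and 1025 fell, and those higher in Vg1.1+ cells numbered 271, 4 and 839. E2F words stood in 10 of their 20 promoters.

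Genes of mitosis had medians further below 0 than the replication genes as CD24 was lost. Of 22 tested, 21 fell in Vg1.1+ and 22 in Vg2+ cells at the loss of CD24, where 6.92% and 9.91% of all tested genes fell. Their medians were -1.14 and -1.82, against -0.65 and -0.88 for the replication genes. As CD73 was gained, none of the 22 was called in Vg1.1+ cells (median -0.26). An unadjusted p under 0.05 (limma) was found there for 2, and for 1542 of all 8545 tested genes. In Vg2+ cells Nusap1 (0.64 ± 0.21) and Ndc80 (0.43 ± 0.14) rose (median 0.17), where 5.82% of tested genes rose. Without the narrow pair the counts at the loss of CD24 were 21 and 22, and at the gain of CD73 1 fell in Vg1.1+ cells and none was called in Vg2+ cells. Of all 8545 tested genes, 539 and 1025 then fell at the loss of CD24, and 437 at the gain of CD73 in Vg1.1+ cells. Whether any of these lists differ was not tested. Ccna2 averaged 8.20, 7.84 and 6.70 in the Vg1.1+ stages and 7.71, 7.74 and 5.91 in the Vg2+ stages. At CD24-CD73+ 16 of the 22 were higher in Vg1.1+ cells, led by Tpx2 (0.99 ± 0.14), where 5.79% of all tested genes were higher. Without the narrow pair 18 were higher, as were 839 of all 8545 tested genes. Their promoters held TTTGAA in 71.4%, CCAAT in 81.0% and an E2F word in 4.76%.

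Regulators upstream of S phase were counted in the same way. Among cyclin D genes, their kinases and Myc, 5 were tested. Cdk6 fell as CD24 was lost, by 1.33 ± 0.25 in Vg1.1+ and by 0.80 ± 0.23 in Vg2+ cells, and also as CD73 was gained in Vg2+ cells (-0.99 ± 0.25). From the first to the last stage of Vg2+ cells 2 of the 5 fell, where 12.9% of tested genes fell. These were Cdk6 (-1.79 ± 0.25) and Cdk4 (-1.12 ± 0.38), the second named after its values were seen. In Vg1.1+ cells Cdk6 fell (-2.04 ± 0.23) and Cdk4 was not called (-0.97 ± 0.36). Ccnd2, Ccnd3 and Myc were called in no comparison of the main fit, nor was the inhibitor Cdkn1b. Without the narrow pair 2 of the 5 rose and 2 fell over those stages in Vg1.1+ cells, and 1 rose and 2 fell in Vg2+ cells. At least 2 of Ccnd2, Ccnd3 and Myc were therefore called there in Vg1.1+ cells, and at least 1 in Vg2+ cells. Of all 8545 tested genes, 1010 then rose and 1089 fell in Vg1.1+ cells, and 1179 rose and 1500 fell in Vg2+ cells. Of 15 tested inhibitors and quiescence genes, 1 rose and 5 fell at the loss of CD24 in Vg1.1+ cells, and 2 rose and 2 fell in Vg2+ cells. Of all tested genes 4.28% rose and 6.92% fell in Vg1.1+ cells, and 10.3% rose and 9.91% fell in Vg2+ cells. Without the narrow pair the list gave 2 risen and 4 fallen in Vg1.1+ cells and 2 of each in Vg2+ cells. Of all 8545 tested genes, 426 then rose and 539 fell in Vg1.1+ cells, and 948 rose and 1025 fell in Vg2+ cells. The antiproliferative factor Tob1 rose in both, by 0.93 ± 0.11 and 0.55 ± 0.10, and the pocket protein Rbl2 rose by 1.07 ± 0.16 in Vg2+ cells. The CDK inhibitor Cdkn2c fell by 0.66 ± 0.14 in Vg1.1+ and by 0.79 ± 0.13 in Vg2+ cells at that step and was higher in Vg1.1+ cells at CD24+CD73- (0.62 ± 0.14). Over the 22 arrays it correlated at 0.89 with the mean of the replication genes. Cdkn1a did not pass the filter, and Cdkn2d was not measured here.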

How the data were processed

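RNA from sorted thymocytes was extracted with TriReagent and labelled with biotin, per the labels' protocols. The deposited values are log2 intensities per probe set, which the authors summarised by RMA with the oligo package, per the submitters' processing notes. Versions and the genome build were not given in the sources used here. Since RMA makes the distributions of arrays alike, the spread that remains between arrays was carried as an alternative, and 1 log2 value per gene cannot show isoforms.

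Of 16755 probe sets, 14996 list 1 symbol, 1019 several and 740 none, by the platform's annotation. All 14941 symbols that could be checked by gene ID against RefSeq were current. The 14860 genes with such a probe set each used the one with the highest mean, and 8545 had log2 values above the table's median, 4.55, on at least 3 arrays. These were fitted with limma 3.58.1 (R 4.3.3; lmFit, 1 mean per group over all 22 arrays, eBayes, prior degrees of freedom 4.47). The 11 contrasts were tested two-sided with Benjamini-Hochberg adjustment over all 8545 genes, each contrast by itself, at 0.05 and with no minimum fold. The fit was first run on simulated data with independent noise for each gene. Those data held no difference in spread between arrays, so that run cannot speak to the narrow arrays. Arrays of a group correlated at 0.946 to 0.993 and no 2 arrays were identical. The number of arrays limits the precision.

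Arrays with the same replicate number did not deviate together (51 pairs, r from -0.67 to 0.56, median -0.16), so the numbers were not used as pairs. The alternatives were a replicate block, no filter or a stricter filter (65th percentile), trended and robust moderation, only the groups of a contrast, array weights, cyclic loess, the SD of each array as a covariate, leaving out the 2 arrays of narrowest spread, the probe set of lowest mean, and leaving out each array.

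The replication genes and every list (roles, other replication machinery, other E2F-linked genes, mitosis, cyclin D genes, inhibitors, cell type markers) were chosen with earlier results of these data known. All measured replication genes could be named. Of the other lists the genes with the largest called changes were named, with 11 followed genes (Cdkn1a, Cdkn1b, Cdkn2c, Cdkn2d, Ccnd2, Ccnd3, Myc, Cdk6, Mki67, Top2a and Ccna2) and the 10 genes most correlated with the group's mean. Marker sums are sums of 2 to the power of the log2 value. Python 3.11.15, pandas 2.3.3 and matplotlib 3.10.9 were used for tables and plots.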

Additional observations from a re-analysis of the deposited data

Results flagged for a closer look

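In 128 groups of 4 arrays of the 32 measured genes, 13 held 1 array whose gap to the nearest, as a share of the group's range, passed Dixon's 95% limit for 4 values. Chance flags about 1 in 20 such groups, or 6.4 here.

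Replicate 1 of Vg1.1+ CD24-CD73+, the array of narrowest spread, was low for Mcm6 (7.52, nearest 8.64, ratio 0.942), Mcm4 (5.85, nearest 6.82, ratio 0.907), Ccne1 (5.66, nearest 6.20, ratio 0.882) and Gins1 (4.12, nearest 4.44, ratio 0.83). Replicate 3 of Vg2+ CD24+CD73+, the second narrow array, was low for Mcm6 (8.37, nearest 8.83, ratio 0.858) and E2f1 (4.56, nearest 4.82, ratio 0.833). Other single arrays of Vg1.1+ CD24-CD73+ were high for Rfc5 (replicate 2, 7.70 against 6.87, ratio 0.963) and Uhrf1 (replicate 3, 6.99 against 6.58, ratio 0.857).

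In Vg2+ CD24+CD73+ cells replicate 4 was high for Chaf1a (5.78 against 5.30, ratio 0.962) and Gins1 (5.24 against 4.79, ratio 0.901), and replicate 2 was low for Fen1 (3.496 against 3.95, ratio 0.854). In Vg1.1+ CD24+CD73- cells replicate 1 was low for Prim1 (7.86 against 8.17, ratio 0.848) and replicate 3 high for Chaf1b (6.10 against 5.87, ratio 0.832).

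The step at which CD24 is lost differed between the subsets for Chek1, by 0.93 on the log2 scale (Vg1.1+ minus Vg2+, adjusted p = 0.0359, limma). Its adjusted p ran from 0.00037 to 0.116 over the alternatives.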

How the results depend on the processing

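The falls from the first to the last stage (29 genes in Vg1.1+, 26 in Vg2+) and the fall as CD24 was lost in Vg2+ cells (24) stayed within 1.5 times of those counts under every alternative run. Of 2353 values of called genes recomputed under alternatives, 2131 kept direction and call, 222 lost the call and 0 changed sign. The other counts moved as follows, and the cause was not tested. At the gain of CD73 in Vg1.1+ cells the count of 6 became 1 with the replicate block, 2 with no filter, 17 with only the groups of the contrast, 21 with array weights, 12 with the spread as a covariate and 10 without the 2 arrays of narrowest spread. At the gain of CD73 in Vg2+ cells the count of 2 became 1 with the replicate block, with no filter and with only the groups of the contrast, 4 with array weights and with cyclic loess, and 6 with the covariate. At the loss of CD24 in Vg1.1+ cells 19 became 11 with only the groups of the contrast. Between the subsets at CD24+CD73- 12 became 5 with the replicate block, 7 with no filter, 23 with only the groups, 26 with array weights, 19 with the covariate and 21 without the narrow arrays. At CD24+CD73+ 0 became 2 with array weights. At CD24-CD73+ 15 became 9 with only the groups, 24 with array weights and with the covariate, and 23 without the narrow arrays. For the difference of the CD73 steps 0 became 1 with only the groups and without the narrow arrays, 9 with array weights, 4 with cyclic loess and 3 with the covariate. For the difference of the CD24 steps 1 became 0 with the replicate block, with no filter and with only the groups, 10 with array weights, 3 with cyclic loess, and 4 with the covariate and without the narrow arrays. Leaving out 1 array at a time gave 1 to 7, 12 to 21 and 28 to 29 genes (gain of CD73, loss of CD24, first to last stage) in Vg1.1+ cells, and 0 to 3, 23 to 27 and 23 to 27 in Vg2+ cells. Between the subsets it gave 5 to 9, 0 to 1 and 11 to 22 at the successive stages, and 0 to 0 and 0 to 3 for the differences of the CD73 and CD24 steps. The replicate block changed no other count by over 1.5 times, and 2 of 22 arrays correlated best with an array of their own number. Groups of 3 or 4 arrays leave SEs of up to 0.39 (Tk1) where 2 groups are compared. For the same gene the SE is larger in a difference of steps. Small differences of scattered genes were therefore not detectable, and values of Gins1, Tk1, E2f1 and E2f2 lie near the median of the table.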
